A study of Mus musculus with 9 samples.

Results

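Cidea and Cidec encode proteins of the surface of lipid droplets, and the binding of PPARγ around both genes in interscapular brown adipose tissue (iBAT) was described over the day. The members were chosen by position, as the peaks whose centre lies in 1 of 2 windows of the mouse genome mm10, from 67.32 to 67.39 Mb of chromosome 18 for Cidea and from 113.41 to 113.45 Mb of chromosome 6 for Cidec. There were 11 such peaks around Cidea and 9 around Cidec, which gives 20 of the 66066 peaks of the deposited count table. Brown fat was taken from male wild-type C57BL/6J mice of 10 weeks old, housed at 22 °C on chow with 12 h of light and 12 h of darkness. The groups were 8 zeitgeber times (ZT), every 3 h from lights on at ZT0 to ZT21, and the labels give no difference between them other than the time. Each time point was 1 ChIP-sequencing library from 1 pool of animals, of 8 mice by the ChIP method, although the section on animals states 4 per time point. As no time point was repeated, variation among mice and among preparations cannot be estimated here, and an input library of ZT12 was not analysed.

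PPARγ is the nuclear receptor that drives the fat cell programme. It binds DNA together with the retinoid X receptor, mostly at a direct repeat called DR1. Cidea and Cidec belong to the CIDE family, together with Cideb, which is best known from liver and intestine. CIDEA marks brown fat cells, with their many droplets, and CIDEC (also called FSP27) is needed for the single large droplet of white fat cells. Both proteins gather where droplets touch and pass lipid from the smaller droplet to the larger one, and both genes are known PPARγ targets in fat cells.

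The reads in peaks numbered 29572225 in the smallest library and 34264812 in the largest, and the effective library sizes calculated by edgeR (TMM) deviated from these totals by factors of 0.959 to 1.04. Levels are given below as normalized counts, which are reads scaled to the mean effective library size. In whole tissue, fewer cells of a type and less binding per cell cannot be told apart. PPARγ peaks at marker genes of brown fat and of fat cells were listed, as gene expression was not analysed here. Ucp1, the uncoupling protein of brown fat, was the gene of the nearest start site for 8 peaks, the strongest with a mean of 10544, and Adipoq, Plin1, Fabp4, Lpl, Ppargc1a, Dio2, Cox8b and Elovl3 had between 2 and 54 peaks each. The strongest peaks of these other genes had means from 913 for Elovl3 to 7379 for Plin1. Prdm16 had 0 peaks by this assignment. The share of all genes with such peaks was not calculated, so this list does not test the identity of the tissue.

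The Cidea gene runs on the plus strand from chr18:67343564-67367794 and has 5 exons. The non-coding gene B430212C06Rik runs in the opposite direction and starts 540 bases inside Cidea, so that its introns cover most of the region upstream. Cidec runs on the minus strand, from chr6:113424634-113435760, and has 6 exons. A second start site of Cidec lies at 113434764. By the nearest start site, 6 of the 11 peaks of the Cidea window belong to B430212C06Rik, 3 to Cidea and 2 to Tubb6, and the peaks of the Cidec window divide evenly over Cidec, Jagn1 and Rpusd3 with 3 each, so the peaks are described by position and not by an assigned gene. Positions below are given in kb from the first start site, counted in the direction of transcription.

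The DR1 element was searched as 2 copies of AGGTCA with 1 base between them, on both strands and with up to 2 mismatches in 12 fixed bases. Among all peaks 23.6% held such a match, 4.99% held one with at most 1 mismatch, and 0.605% held a perfect one. The members held 14 matches and no perfect one. The matches outside exons of the Cidec window are shown here because they lie in 2 peaks that the results below contrast, the broad peak at +2.7 kb and the peak at +11.6 kb behind the gene. The 13 bases of each match are in capitals, bases are read from mm10 in the 5′ to 3′ direction of the strand that holds the match, and each sequence is named by the position of the match.

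Cidec +11.3 kb: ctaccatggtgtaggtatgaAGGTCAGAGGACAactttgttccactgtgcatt
Cidec +12.1 kb: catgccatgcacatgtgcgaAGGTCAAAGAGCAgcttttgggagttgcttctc
Cidec +12.4 kb: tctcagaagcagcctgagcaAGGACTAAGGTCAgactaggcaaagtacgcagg
Cidec +5.39 kb: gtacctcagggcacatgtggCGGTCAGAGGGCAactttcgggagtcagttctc
Cidec +4.80 kb: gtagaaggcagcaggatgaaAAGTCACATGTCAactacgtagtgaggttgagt

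The match at +11.3 kb (chr6:113424451-113424463, minus strand) lies just behind the last exon of Cidec and differs from the DR1 by T11A, counted from 1 at the 5′ end of the repeat. It was the only match in the Cidec window with 1 mismatch. The other matches behind the gene differ by G10A and T11G (chr6:113423648-113423660, minus strand) and by T4A and A6T (chr6:113423343-113423355, plus strand). Those in intron 3 differ by A1C and T11G (chr6:113430360-113430372, minus strand) and by G2A and G9T (chr6:113430956-113430968, plus strand). Of 1571 peaks of like length to the +11.6 kb peak, 10.4% held a match with at most 1 mismatch, and of 190 peaks of like length to the +2.7 kb peak, 75.3% held one with at most 2. In the Cidea window 1 match had a single mismatch, at chr18:67333272-67333284 (minus strand), within the strongest Cidea peak, where 25.4% of the 130 peaks of like length held one. These matches are descriptions of the sequence and were not tested as binding sites.

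The 250 bases before the first start site of Cidec (chr6:113435761-113436010, minus strand, RefSeq, GRCm38.p6) are shown because the strongest Cidec peak covers them.

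Cidec promoter: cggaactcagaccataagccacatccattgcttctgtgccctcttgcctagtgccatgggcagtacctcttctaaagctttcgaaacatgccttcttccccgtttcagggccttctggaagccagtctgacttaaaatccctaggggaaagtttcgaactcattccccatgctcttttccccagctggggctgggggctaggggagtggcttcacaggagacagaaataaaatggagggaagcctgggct

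This window holds no AGGTCA on either strand, and its best match to the DR1 has 3 mismatches, so that nothing is printed in capitals. Of 32851 promoter windows of the same length, 14.0% hold an AGGTCA, 3.24% hold a DR1 with up to 2 mismatches and 21.3% one with up to 3. The same window before the second start site has 4 mismatches at best.

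PPARγ binding at both genes was concentrated in a few broad and strong peaks. In the Cidea window, the peak centred 13.8 kb upstream of the start site held 48.3% of the normalized counts and the peak over the start site and the first part of intron 1 held 26.2%. In the Cidec window, 54.2% of the counts lay in the peak over both start sites, centred at +2.7 kb. The strongest Cidea peak had a mean of 10058, above 99.96% of all peaks, and the strongest Cidec peak a mean of 6759, above 99.86%. Per kb of peak length these were means of 1333 and 979, against 629 in the Cidea peak over the start site. The weakest member was the Cidec peak at -8.8 kb, with a mean of 79.1.

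**Figure D1:**
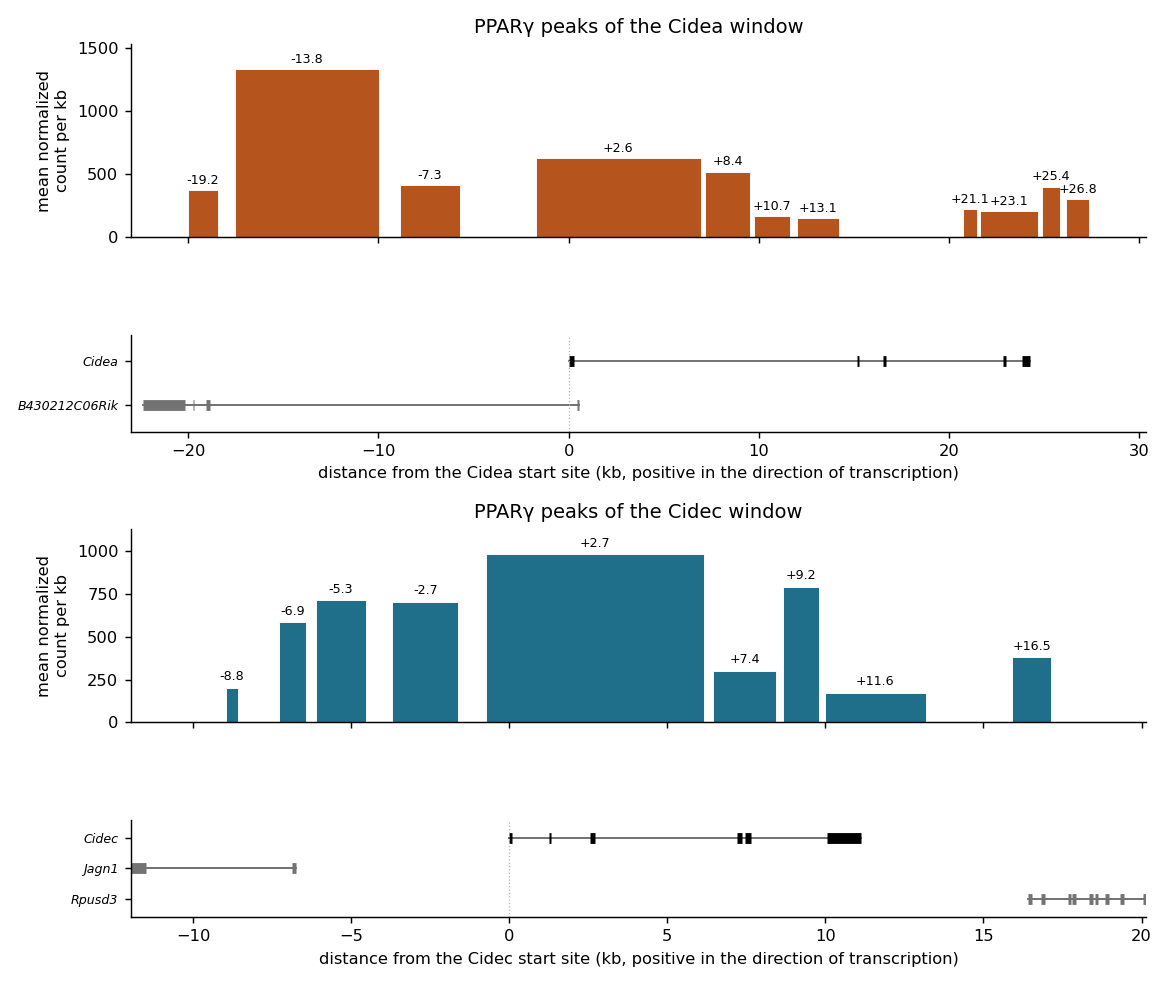
Mean normalized count per kb of each PPARγ peak (vertical axis, bars as wide as the peak, labelled with the centre in kb) against the distance from the start site in kb, with exons of the genes drawn below as boxes. The highest bars are the Cidea peak at -13.8 kb with 1333 and the Cidec peak at +2.7 kb with 979 counts per kb.

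Whether binding at these sites oscillated was tested for each peak in 2 ways. JTK-cycle, a rank test of the order of the 8 libraries against cosines of 21 and 24 h, called 3 of the 20 members at an adjusted P under 0.05, against a background of 11.6% of all peaks. With tied values of the reference cosine, JTK called 0 Cidea and 1 Cidec peaks, and 2164 of all peaks in place of 7686. Without ZT9 it called 5 Cidea and 2 Cidec peaks, and without ZT12 it called 2 Cidea and 4 Cidec peaks. A 24-h cosine fitted by edgeR's quasi-likelihood method called 7 members at a Benjamini-Hochberg adjusted p under 0.05, against a background of 13.4%. Cosine calls were more frequent among strong peaks, with 14.6% for means of 500 to 1000, 21.8% for 1000 to 2500 and 72.8% for 5000 or more, the group of 3 of the called members. Without the library of ZT18 the cosine called 0 Cidea and 0 Cidec peaks and 3067 of all peaks in place of 8842, and without ZT15 it called 1 Cidea and 0 Cidec peaks. With all 8 libraries, only the Cidec peak at -5.3 kb was called by both tests, and 11 members were called by neither. The shares of all peaks called by both tests or by neither were not calculated, so these counts have no background here. No JTK call of any peak of the genome held after a Benjamini-Hochberg correction over all 66066 peaks, where the smallest q was 0.0968 and 0 peaks were under 0.05.

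The changes over the day had about the size seen in other peaks, with a median amplitude of the fitted cosine of 0.17 in log2 over the members and over all peaks. The median ratio of the highest to the lowest library was 1.34 over the members and 1.52 over all peaks, and this ratio differed with strength, with medians of 1.44 among peaks with a mean of 250 to 500, 1.36 for 500 to 1000, 1.33 for 1000 to 2500, 1.32 for 2500 to 5000 and 1.37 for 5000 or more. The median residual SD around the cosine was 0.08 over the members and 0.16 over all peaks. Of the members, 18 were stronger than the median peak of the genome, which had a mean normalized count of 224. For 18 of the 20 members, the Wilson intervals of the highest and the lowest library did not overlap, the exceptions being the Cidea peak at +21.1 kb and the Cidec peak at -6.9 kb. Because the highest and the lowest of 8 libraries were picked, this is a description of counting error and not a test. The share of all peaks with such intervals was not calculated, so 18 of 20 cannot be set against a background.

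The Cidea peak at -13.8 kb (chr18:67326031-67333574, in intron 1 of B430212C06Rik) was higher from ZT3 to ZT12 than at the other times and lowest in the middle of the dark phase. Its normalized counts, given here and below in 3-h steps, were 9068, 10875, 12013 and 10852 from ZT0 to ZT9 and 10879, 9302, 8248 and 9231 from ZT12 to ZT21. Every value from ZT3 to ZT12 was above every value from ZT15 to ZT0, and counting error was at most 2.2% of a value. The cosine had an amplitude of 0.23 ± 0.04 (SE, log2, 8 libraries), a maximum at 7.14 h and an edgeR adjusted p of 0.0062, whereas the exact JTK adjusted P was 0.0826. The edgeR call was lost without the library of ZT18, with an adjusted p of 0.0596, and with cyclic loess offsets, described below, with 0.374. After cyclic loess the highest library was ZT15, with 10588, and the lowest ZT0, with 9293, a ratio of 1.14 in place of 1.46.

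The Cidea peak at +2.6 kb (chr18:67341829-67350504) is the widest member with 8.68 kb and covers the start site. Its normalized counts were 4977, 5767, 6209 and 5624 from ZT0 to ZT9 and 6015, 5033, 4907 and 5108 from ZT12 to ZT21. The libraries from ZT3 to ZT12 again lay above the other 4, and ZT18 was again the lowest. The cosine had its maximum at 7.48 h and an edgeR adjusted p of 0.0482, which was over 0.05 in 13 of 14 alternatives, and the exact JTK adjusted P was 0.212.

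Most of the weaker Cidea peaks inside and behind the gene had their highest library at ZT12, with the +26.8 kb peak (ZT9) as the exception. ZT12, when lights go off, was the highest library in 6 of the 11 Cidea peaks, and ZT18 was the lowest in 6 of them. Among all peaks, 10.6% were highest at ZT12 and 10.3% lowest at ZT18. Only at +8.4 kb was the Wilson interval of ZT12, 1468 to 1624, apart from that of the next highest library, ZT9 with 1250 to 1391. At +13.1 kb, for example, ZT12 had 377 and ZT15 had 374. The peaks share the same ZT12 library, so these counts are descriptions only. The peak at +8.4 kb of intron 1 had its highest value at ZT12, with 1544, and the other libraries were between 1070 and 1318. Neither test called it, with an edgeR adjusted p of 0.163. At +10.7 kb the counts were 276, 300, 358 and 355 from ZT0 to ZT9 and 393, 327, 274 and 275 from ZT12 to ZT21. The highest library was at lights off and the lowest were ZT18, ZT21 and ZT0, with an edgeR adjusted p of 0.0495 that was over 0.05 in 11 of 14 alternatives.

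JTK called the Cidea peaks at +13.1 and +26.8 kb. The +13.1 kb peak of intron 1 had counts of 315, 285, 317 and 324 from ZT0 to ZT9 and 377, 374, 357 and 293 from ZT12 to ZT21. It had a LAG (the JTK estimate of the time of the maximum) of 13.5 h and an exact JTK adjusted P of 0.00595, and its ZT6 minus ZT18 difference was -0.17 in log2. Its edgeR adjusted p was 0.165, and the JTK call was lost in 1 of 14 alternatives, with tied values of the reference cosine, at 0.0543.

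The +26.8 kb peak, behind the last exon and nearer to the start site of Tubb6 than to that of Cidea, had counts of 362, 390, 399 and 477 from ZT0 to ZT9 and 341, 294, 306 and 379 from ZT12 to ZT21. Its highest library was ZT9 and its LAG was 6 h, so it was lower at ZT12 than at ZT9, unlike its neighbour at +25.4 kb, which reached its highest count of 458 at ZT12. The exact JTK adjusted P was 0.026 and the edgeR adjusted p 0.132. The JTK call was lost in 8 of 14 alternatives, with library totals in place of TMM, at 0.467, with a period of 24 h only, at 0.249, with tied values of the reference cosine, at 0.147, and when 5 of the 8 libraries were each left out, at 0.161 in all 5, namely ZT0, ZT12, ZT15, ZT18 and ZT21.

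The remaining Cidea peaks were called by neither test. The peak at -7.3 kb, between the 2 strongest peaks, ranged from 1177 at ZT18 to 1465 at ZT6. At -19.2 kb the counts were between 554 at ZT12 and 671 at ZT3, so this distal peak had its lowest library at the time when 6 other peaks of the window had their highest. The peaks at +21.1 and +23.1 kb, in the last introns, reached 179 and 729 at ZT12. For the +21.1 kb peak the counting error was up to 16.7% of a value.

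**Figure D2:**
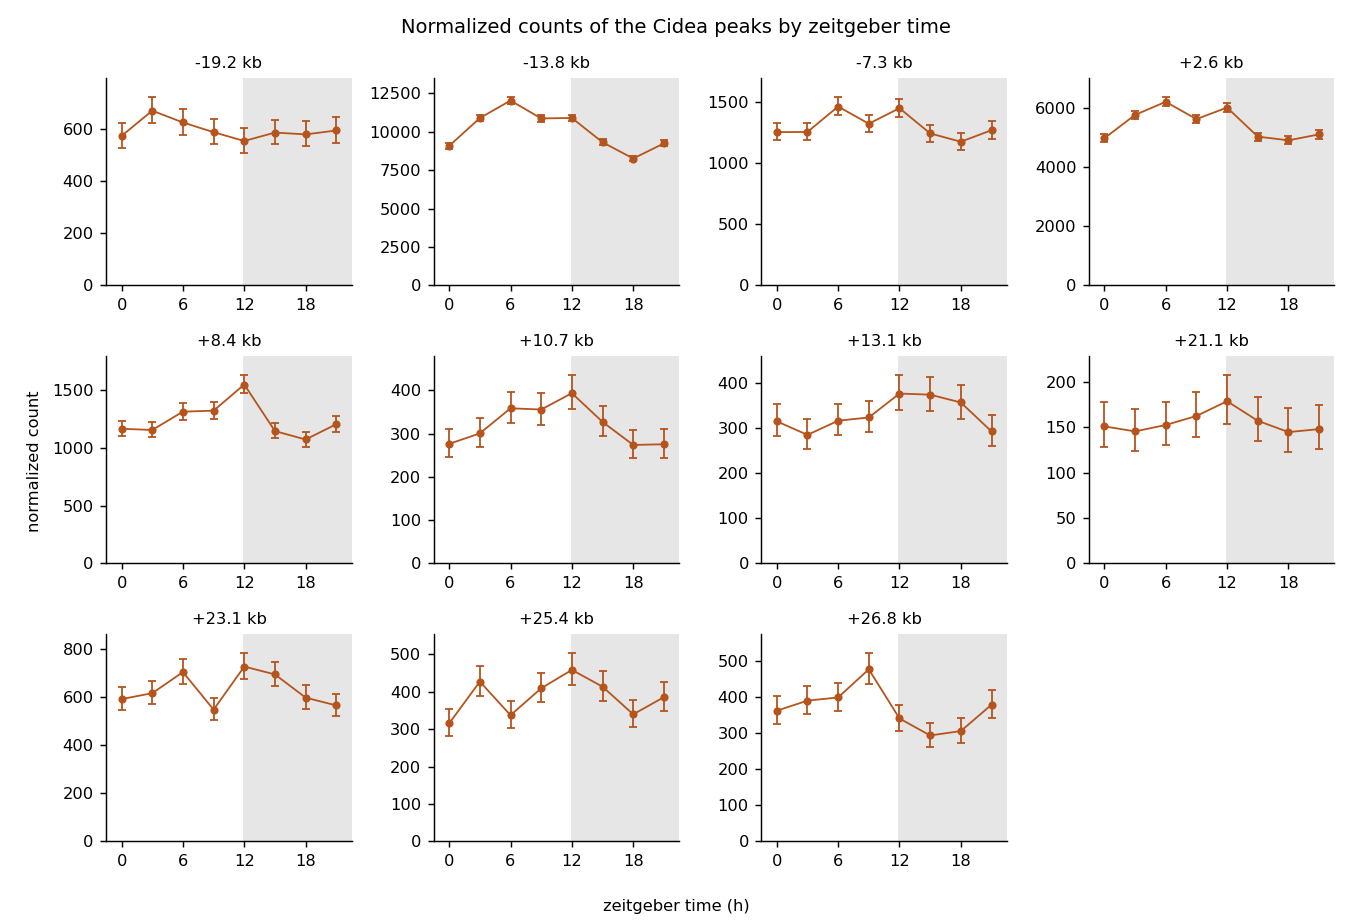
Normalized counts (vertical axis, starting at 0) of the 11 Cidea peaks by zeitgeber time in h, with Wilson 95% intervals of the count as bars and the dark phase in grey. The 2 strongest peaks were highest at ZT6, with 12013 and 6209, and 6 of the weaker peaks at ZT12.

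At Cidec, the strongest peak was likewise higher from ZT3 to ZT12 than at the other times. The +2.7 kb peak (chr6:113429604-113436509) covers both start sites and reaches into intron 3, and its normalized counts were 6859, 7240, 7694 and 6978 from ZT0 to ZT9 and 7221, 5812, 6012 and 6257 from ZT12 to ZT21. All libraries from ZT3 to ZT12 were above the others, ZT0 came close to ZT9, and the largest step was the one from ZT12 to ZT15. The cosine had an amplitude of 0.17 ± 0.04 (SE, log2, 8 libraries), a maximum at 5.82 h and an edgeR adjusted p of 0.0257, and the exact JTK adjusted P was 0.0826. The edgeR call was lost with library totals, at an adjusted p of 0.0714, without ZT6, ZT15 or ZT18, at 0.0925 to 0.128, and with cyclic loess offsets, at 0.901, where the ratio of highest to lowest library after loess was 1.08 in place of 1.32.

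The peak at -2.7 kb, upstream of the gene, had counts of 1465, 1617, 1613 and 1562 from ZT0 to ZT9 and 1584, 1227, 1310 and 1386 from ZT12 to ZT21. Its profile was the closest of all members to that of the +2.7 kb peak, with a Pearson r of 0.97 over the 8 libraries, but it was not called, with an edgeR adjusted p of 0.0648 and an exact JTK adjusted P of 0.212.

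The largest relative change of any member was at +9.2 kb, in intron 5 of Cidec (chr6:113425976-113427096). This peak of 1.12 kb had counts of 754, 1046, 1277 and 885 from ZT0 to ZT9 and 992, 603, 691 and 845 from ZT12 to ZT21. The value at ZT6 was 2.12 times that at ZT15, with Wilson intervals of 1210 to 1348 and 557 to 652. The cosine had an amplitude of 0.37 ± 0.12 (SE, log2, 8 libraries), a maximum at 5.74 h and an edgeR adjusted p of 0.0241, and the exact JTK adjusted P was 0.0826. Leaving out ZT6, ZT15 or ZT18 ended the edgeR call, with adjusted p values of 0.0831 to 0.144. No DR1 with up to 2 mismatches was found in this peak, and 23.9% of the 6363 peaks of like length held one.

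Behind the gene, the +11.6 kb peak, which holds the DR1 match with T11A shown above and overlaps the last exon, had counts of 493, 619, 595 and 713 from ZT0 to ZT9 and 635, 453, 435 and 509 from ZT12 to ZT21. The libraries of ZT3 to ZT12 were above the rest, with the maximum of the cosine at 7.33 h, an amplitude of 0.30 ± 0.07 (SE, log2, 8 libraries) and an edgeR adjusted p of 0.0295. This adjusted p was 0.0619 with library totals and between 0.0526 and 0.14 without ZT9, ZT12, ZT15 or ZT18. The +7.4 kb peak of intron 4 also had its ZT3 to ZT12 libraries above the other ones, from 508 at ZT18 to 729 at ZT12, and was not called, with an edgeR adjusted p of 0.0963.

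The Cidec peak at -5.3 kb, in the intergenic stretch between Cidec and the divergent gene Jagn1, was the member whose JTK call held in the most alternatives. Its counts were 974, 1079, 1137 and 1321 from ZT0 to ZT9 and 1293, 1244, 1042 and 1029 from ZT12 to ZT21. The highest libraries were ZT9, ZT12 and ZT15, and at ZT15 the strongest Cidec peak was at its lowest. The cosine had an amplitude of 0.21 ± 0.02 (SE, log2, 8 libraries), a maximum at 10.9 h and an edgeR adjusted p of 0.0252, and JTK gave a LAG of 10.5 h and an exact adjusted P of 0.00595. The JTK call held in all 14 alternatives tried for it, and the edgeR call was lost without ZT0, ZT9, ZT12, ZT15 or ZT18, with adjusted p values of 0.0585 to 0.086.

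The peaks nearest to the start sites of the neighbouring genes did not have this order. At the start of Jagn1 (-6.9 kb) the counts were between 470 at ZT6 and 542 at ZT12, and at the start of Rpusd3 (+16.5 kb) they were between 422 at ZT6 and 524 at ZT21. The latter was the only member with its highest library in the dark phase after ZT12, and its edgeR adjusted p was 0.177. At -8.8 kb, in Jagn1, the counts were between 62.6 and 99.5, with a counting error of up to 25.3% of a value.

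**Figure D3:**
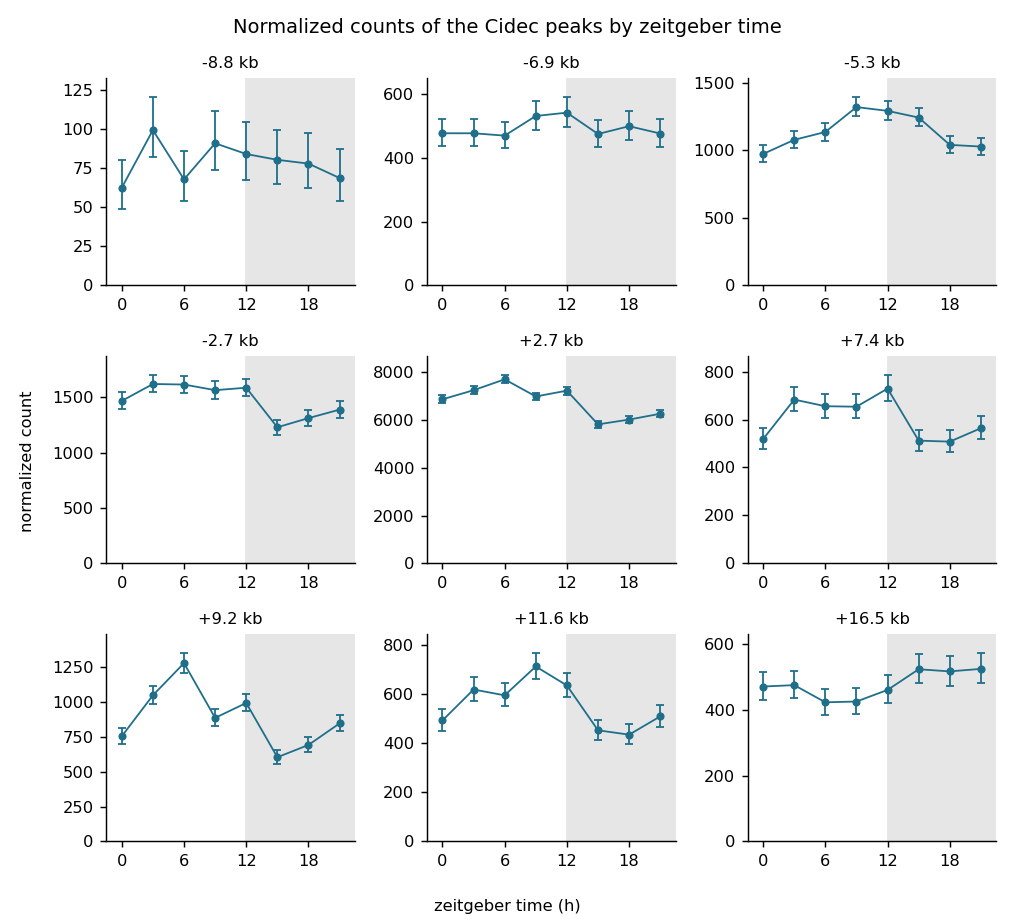
Normalized counts (vertical axis, starting at 0) of the 9 Cidec peaks by zeitgeber time in h, with Wilson 95% intervals of the count as bars and the dark phase in grey. The +9.2 kb peak had the widest relative range, from 603 at ZT15 to 1277 at ZT6.

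The excess of ZT3 to ZT12 over the other libraries, an order noticed after the values were seen, was present in 7 of the 20 members, 2 at Cidea and 5 at Cidec. Among all peaks the background was 5.9%, but it was 57.9% among the 261 peaks with a mean of at least 5000. The Cidea peaks at -13.8 and +2.6 kb and the Cidec peak at +2.7 kb belong to that group. The share was 13.8% for means of 1000 to 2500, the group of the Cidec peak at -2.7 kb. For means of 500 to 1000, the group of the Cidec peaks at +7.4, +9.2 and +11.6 kb, it was 6.42%. Among peaks with a mean above 500, the difference between ZT6 and ZT18 was larger the stronger the peak. Its median in log2 was 0.02 for means of 500 to 1000, 0.12 for 1000 to 2500, 0.28 for 2500 to 5000 and 0.40 for 5000 or more. In weaker peaks there was no such order, with -0.03 under 100, -0.08 for 100 to 250 and -0.04 for 250 to 500. At -13.8 kb of Cidea the difference was 0.54, above 77.4% of the 261 strongest peaks. It was 0.34 at +2.6 kb of Cidea and 0.36 at +2.7 kb of Cidec, which was below the median of that group for both.

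Cyclic loess, which removes a trend with strength between libraries, was therefore compared with TMM for each member. After loess the ZT6 minus ZT18 difference was 0.09 in log2 at -13.8 kb of Cidea, -0.01 at +2.6 kb of Cidea and -0.03 at +2.7 kb of Cidec. With loess offsets in the cosine fit, an alternative chosen after seeing the data that called 11.1% of all peaks, the edgeR adjusted p of these peaks was 0.374, 0.474 and 0.901. The +9.2 kb peak of Cidec kept a difference of 0.83, from 0.89, and an adjusted p of 0.0377. Its difference before loess was above 98.4% of the 9784 peaks with a mean between 500 and 1000. This peak was singled out as the member with the largest change, so this rank is not a test. Its ratio of highest to lowest library was above that of 89.5% of all peaks. The +11.6 kb peak kept 0.45, with an adjusted p of 0.0345, the -5.3 kb peak had an adjusted p of 0.0321 and the Cidea peak at +10.7 kb one of 0.0498. After loess, the order of ZT3 to ZT12 above the other libraries was lost in both Cidea peaks that had it. At +2.6 kb of Cidea, ZT15 with 5583 was above ZT3 with 5405. At Cidec the order was lost at +2.7 kb, where ZT0 was highest with 6996, and kept at -2.7, +7.4, +9.2 and +11.6 kb. Whether the trend with strength comes from the tissue or from the preparation of the libraries cannot be told apart with 1 library per time point.

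**Figure D4:**
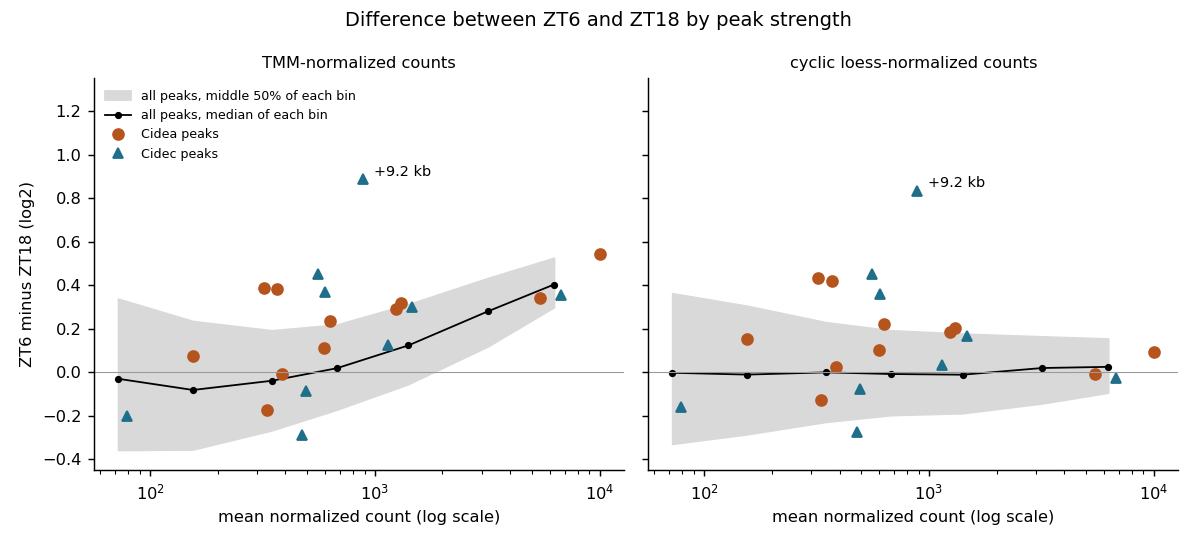
Difference between ZT6 and ZT18 in log2 (vertical axis) against the mean normalized count of a peak (log axis), with TMM on the left and cyclic loess on the right, for Cidea (circles) and Cidec (triangles) and for all peaks by strength (line, median; grey, middle 50%). With TMM the Cidea peak at -13.8 kb has 0.54, against an upper quartile of 0.53 among peaks with a mean of 5000 or more. With loess it moves to 0.09 and the Cidec peak at +2.7 kb from 0.36 to -0.03. The Cidec peak at +9.2 kb is at 0.83 with loess.

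Summed over each window, the counts were lowest at ZT18 for Cidea, with 18001, and highest at ZT6, with 23891, a ratio of 1.33 over 33.3 kb of peaks. For Cidec the sum was lowest at ZT15, with 10930, and highest at ZT6, with 13931, a ratio of 1.27 over 19.4 kb. These sums mostly repeat the strongest peaks. The profiles of single peaks in a window were only loosely alike, with a median Pearson r over the 8 libraries of 0.42 for the 55 pairs at Cidea, 0.46 for the 36 pairs at Cidec and 0.38 for the 99 pairs between the genes. All pairs share the same 8 libraries, so these values are descriptions only.

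The nearest peaks outside the windows had means between 140 and 356. At -25.4 kb of Cidea a peak with a mean of 177 was highest at ZT3, with 231, and lowest at ZT12, with 124, the time of the highest library in 6 Cidea peaks, and its edgeR adjusted p was 0.0242 with a maximum at 23.9 h. On the other side, a peak nearest to Tubb6 at +47.4 kb had a mean of 356. The peaks beyond the Cidec window, nearest to Ttll3 and Il17re, had means of 140 and 294. The one nearest to Ttll3 was highest at ZT9 and lowest at ZT0, with an edgeR adjusted p of 0.0353 and a maximum at 10.9 h.

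The genes whose strongest peak was most like that of Cidea were Pitpnm2os1 with a Pearson r of 0.996, Prkar2b, a regulatory subunit of protein kinase A, with 0.994, and Pank1, an enzyme of coenzyme A synthesis, with 0.991, over the 8 libraries and among 15486 genes. Most like the strongest Cidec peak were Ptprr with 0.990, Smco4 with 0.988 and Cryzl1 with 0.987. Such likeness was common, as 410 genes (2.65%) had an r over 0.9 with the Cidea peak and 657 genes (4.24%) with the Cidec peak.

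Other genes of lipid droplets were taken from a list of 20, which was made with earlier results of these data known. A total of 19 had a peak nearest to their start site, and Fitm1 had none. Of their 78 peaks, JTK called 12 (15.4%) and the edgeR cosine 20 (25.6%), against 11.6% and 13.4% of all peaks, and with loess offsets the cosine called 4, against 11.1% of all peaks with the same offsets. Without ZT18 the cosine called 6 of the list peaks. The list peaks were also stronger, with a median mean of 728 against 224 for all peaks, and cosine calls were more frequent among strong peaks. The median ratio of highest to lowest library was 1.41 over the list peaks and 1.52 over all peaks.

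By family, Cideb had a single weak peak with a mean of 101, between 91.1 and 108 over the day, with an edgeR adjusted p of 0.873. The perilipins coat lipid droplets, and the strongest peaks of Plin1, Plin2 and Plin4 were called by both tests, with the highest library at ZT6. All 3 peaks have a mean of at least 5000, a group in which the cosine called 72.8% of peaks and JTK 44.1%. Plin4 had its strongest peak at a mean of 9722, with 11661 at ZT6 and 7724 at ZT18 and an exact JTK adjusted P of 0.00595. For Plin1 the mean was 7379, with 8862 at ZT6 and 5994 at ZT18 and the same exact JTK adjusted P. Plin3 had the opposite order, with 3781 at ZT15 against 2869 at ZT6 and an edgeR adjusted p of 0.0266. Plin5 was highest at ZT6, with 3719, and lowest at ZT18, with 2448. Its edgeR adjusted p was 0.0227 and its exact JTK adjusted P 0.0826. Plin3 and Plin5 belong to the peaks with a mean of 2500 to 5000, of which the cosine called 43.0%.

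The peaks of 2 lipases that act on the droplet belong to those with a mean of at least 5000, among which the ZT6 libraries were generally above ZT18. The strongest peak of Lipe (hormone-sensitive lipase) had a mean of 15027, from 12132 at ZT15 to 19021 at ZT6, and that of Pnpla2 (adipose triglyceride lipase) a mean of 13327, from 10961 at ZT18 to 16588 at ZT6. The edgeR adjusted p was 0.00202 for Lipe and 0.00649 for Pnpla2, and the exact JTK adjusted P was 0.026 and 0.0826. Dgat1, which completes triglyceride synthesis, was highest at ZT3 with 7278 and lowest at ZT15 with 5254, with an exact JTK adjusted P of 0.00595, and it belongs to the same group of strong peaks. Per kb of peak length, Plin2 had the highest mean of these strongest peaks with 1520, followed by Cidea with 1333, Mgll (monoglyceride lipase) with 1196, Lipe with 1113 and Pnpla2 with 1098. Cidec had 979, after G0s2, an inhibitor of adipose triglyceride lipase, and Dgat2, and Cideb had the lowest with 244. From Plin2 to Cidec the range over the 8 libraries of each gene overlapped that of the next, but these genes were measured in the same libraries, and the order within each library was not tested.

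**Figure D5:**
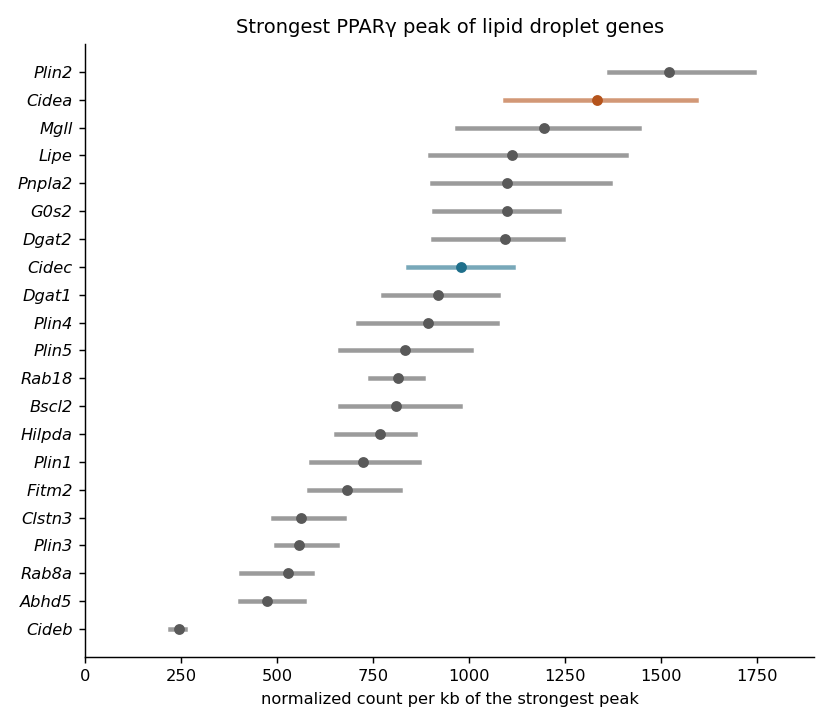
Strongest PPARγ peak of each lipid droplet gene, with its mean normalized count per kb over the 8 libraries (points) and the range from the lowest to the highest library (lines). The Cidea peak (orange) has a mean of 1333 and the Cidec peak (blue) one of 979 per kb, between Plin2 with 1520 and Cideb with 244.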

How the data were processed

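ChIP-sequencing libraries of PPARγ in iBAT at 8 time points were used, 1 per time point. The authors aligned reads to mm10 with BWA-MEM 0.7.17, called peaks with MACS2 2.1.2, kept those found in 6 or more libraries (false discovery rate under 0.05), and deposited HTSeq (1.99.2) counts per peak, not normalized. How duplicate reads were treated is not given in the sources used here and would change the counts. Members and lists were chosen with earlier results of these data known. All 20 members are described, list genes by counts and their strongest peak, and likeness by the 3 other genes with the highest r among strongest peaks with a mean of at least 100.

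TMM factors and the cosine test (glmQLFit and glmQLFTest, 5 residual degrees of freedom, so departures from the cosine serve as spread) were from edgeR 4.0.16 in R 4.3.3, and limma 3.58.1 gave amplitudes and cyclic loess. JTK-cycle was rewritten with exact null distributions and 15 combinations of phase and period (21 or 24 h), corrected by Bonferroni. Ties of the reference cosine were broken towards the later phase, a rule adopted after comparison with the paper's supplementary table. Both tests were tested on simulated data. Wilson 95% intervals cover counting error only. Peaks were assigned to the nearest of the start sites of 45756 curated RefSeq transcripts. Alternatives were other scalings, a 24-h period only, tied references, a filter at a mean count of 50, DESeq2 1.42.0, a limit of 10 kb to the start site, and each library left out.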

Additional observations from a re-analysis of the deposited data

How the results depend on the processing

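No paired analysis was possible because each time point has 1 library. JTK calls among all peaks went from 7686 to 2164 with tied reference cosines, and were 7432 to 10802 with 1 library left out. Cosine calls among all peaks were 3067 to 11203 with 1 library left out, against 8842. Of the Cidea peaks, JTK called 2, against 0 with tied reference cosines, 1 with a period of 24 h only and 1 to 5 with 1 library left out. The cosine called 3 Cidea peaks, against 1 with DESeq2 size factors, upper-quartile factors, library totals, the filter at 50 or loess offsets, and 0 to 2 with 1 library left out. Of the Cidec peaks, JTK called 1, against 2 with a period of 24 h only and 1 to 4 with 1 library left out, and the cosine called 4, against 2 with library totals and 0 to 4 with 1 library left out. For the lipid droplet list, JTK called 12, against 6 with tied reference cosines and 11 to 20 with 1 library left out, and the cosine 20, against 4 with loess offsets and 6 to 20 with 1 library left out. The fitted maximum of the Cidec +2.7 kb peak moved to 23.6 h with loess offsets, at an adjusted p of 0.901. The cause of these changes was not tested. A fit with 7 libraries has fewer residual degrees of freedom, and the part this plays was not tested either. For single peaks, 13 of 280 JTK comparisons gained a call and 9 lost one, and 43 of 280 cosine comparisons lost one, besides that of the Cidec +2.7 kb peak with loess offsets given above.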
